A study of Mus musculus with 12 samples.

Results

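The cytosines described here were methylated in brain and nearly unmethylated in whole embryos and embryonic stem cells (ESCs) of the mouse. They were chosen by level, among single cytosines on autosomes 1 to 19 that had a value in 5 libraries. A member had 8% or more in both the BM E19.5 brain and the WT adult brain, and 2% or less in the BM embryo, the WT embryo and the early diploid ESC library. Of 8119606 listed positions 3151748 were autosomal with all 5 values, 2004931 of these were at 2% or less in the 3 libraries without brain (called low cytosines below), and 6338 were members. The members were therefore 0.316% of the low cytosines. Because the rule used these 5 libraries, their levels at the members are a description and not a result.

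The assay was RRBS (reduced representation bisulfite sequencing), in which DNA cut by the enzyme MspI is sequenced after bisulfite treatment, so that CpG-rich DNA is favoured. Each of the 12 groups had 1 library, which leaves no replicate error, and no difference between libraries was tested. The BM adult brain, the BM E19.5 brain and the BM embryo at E15.5 came from bimaternal mice, made by injecting a parthenogenetic haploid ESC (phESC, maternal genome) into an oocyte. The BP embryo at E15.5 was bipaternal, made with a sperm and an androgenetic haploid ESC (ahESC, paternal genome) in an oocyte whose nucleus had been removed. All BM and BP samples carried a knockout of differentially methylated regions (DMR-KO), and the labels do not say which regions. The WT adult brain and the WT embryo at E15.5 were wild type, as were the ahESC, phESC and diploid ESC libraries, each at late and at early passage. The brain region, the sex, the strain and the adult ages are not given in the sources used here. Brain was sampled as tissue, so neurons and glia cannot be told apart, and no expression was measured against which the tissue labels could be checked.

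In most mammalian cells methylation lies on CpG, a cytosine followed by a guanine, where both strands carry it. Neurons are known for a second form on cytosines that are followed by another base, most often in the order CAC. The enzyme DNMT3A writes it. In mouse cortex it builds up mainly after birth. ESCs carry non-CpG methylation too, most often at CAG. Sequence was matched to the deposited table on the assumption that it lists both strands of CG and of GC. Stretches with any other listed cytosine were left out. Every non-CpG cytosine of known context here therefore follows a G.

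The table gives no sequence. Context was read from GENCODE M21 exons and RefSeq promoters (build GRCm38), placed on mm9 by the pattern of listed positions. It became known for 1711 members, 27% of all, against 49.6% of the low cytosines, and these lie in exons or near gene starts. Of the 1711 members 935 (54.6%) were CpG and 776 (45.4%) were not, with 352 in CAC, 259 in CTC, 145 in other CA, 15 in other CT and 5 in CC. With a brain minimum of 20% the share that were not CpG was 27.2%.

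Most non-CpG members of known context stood alone, 646 of 776, and they are shown by the 5 CAC and the 5 CTC members with the highest lower value of the rule's brain libraries, among those with a BM adult brain value. Each window has 21 bases on the strand of the cytosine, with the cytosine and the next 2 bases in capitals.
Col9a1, coding exon, chr1:24258642-24258662, plus strand: cagcctcttgCACcctgcagt
Lrba and Mab21l2, coding exon, chr3:86351100-86351120, plus strand: gggtgatttgCACcacgtagc
Gm42011, promoter window, chr5:117525973-117525993, plus strand: cagcaagacgCACacaggtgt
Aanat, coding exon, chr11:116458152-116458172, minus strand: aggttctgtgCACcgccagta
Zp3, coding exon, chr5:136456191-136456211, minus strand: ccccgggctgCACcagcttcc
Kremen1, coding exon, chr11:5101841-5101861, plus strand: cgtccagcagCTCcaccatgt
Cpvl, coding exon, chr6:53917846-53917866, plus strand: actgaccatgCTCttcctttg
Sash1, coding exon, chr10:8447721-8447741, plus strand: tctcaggctgCTCtaggtcct
Gcat, coding exon, chr15:78866819-78866839, minus strand: gatggcattgCTCtccatgag
D230030E09Rik, exon of a non-coding transcript, chr12:119767990-119768010, minus strand: gaatccaacgCTCttgctgcc

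Most CpG members had another member within 100 bp, 734 of 935, and they are shown by 4 runs in coding exons on the plus strand of mm9. Capitals mark the members, as C on the plus strand and as G where the member is the cytosine of the minus strand.
Nrxn2, chr19:6428617-6428759, 18 members: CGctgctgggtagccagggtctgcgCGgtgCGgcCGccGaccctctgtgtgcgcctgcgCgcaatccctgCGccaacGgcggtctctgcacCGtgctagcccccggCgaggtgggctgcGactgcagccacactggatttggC
Cacna1a, chr8:87083353-87083561, 14 members: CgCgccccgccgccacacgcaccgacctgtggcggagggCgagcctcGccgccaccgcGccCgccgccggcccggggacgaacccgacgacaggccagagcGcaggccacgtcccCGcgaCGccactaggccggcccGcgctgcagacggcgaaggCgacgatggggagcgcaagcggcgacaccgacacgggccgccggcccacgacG
Otud7a, chr7:70903396-70903477, 11 members: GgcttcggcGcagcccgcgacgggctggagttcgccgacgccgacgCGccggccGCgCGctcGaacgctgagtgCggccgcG
Vcpkmt, chr12:70683809-70683939, 19 members: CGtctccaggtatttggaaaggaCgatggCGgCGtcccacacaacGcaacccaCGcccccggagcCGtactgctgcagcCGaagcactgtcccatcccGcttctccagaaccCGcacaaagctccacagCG
Where both letters of a CG are in capitals, the cytosines of both strands were members.

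At the 10 non-CpG cytosines printed above the brain levels were moderate. The CAC in Col9a1, a collagen chain, had 36.8% in the BM adult brain, 42.6% in the BM E19.5 brain and 40.8% in the WT adult brain, against 0 to 2.70% in the 9 other libraries. The CAC in Aanat, an enzyme of melatonin synthesis, had 33.5%, 37.5% and 30.8% in the same order of brains, against 0.735 to 4.76% in the other 9. The CTC in Kremen1, a receptor of the Wnt antagonist Dkk1, had 56.8% in the BM adult brain, 37.2% in the BM E19.5 brain and 36.5% in the WT adult brain, against 0 to 2.03% elsewhere. In each of these 3 the brains lay above the other libraries. The rule and the choice of the highest members fixed this gap for the rule's 5 libraries, so it is a description. The share of all members with such a gap was not counted. The CAC near the start of Gm42011 differed from these 3. It had 52.1%, 83.8% and 31.5% in these brains, but also 59.8% in early phESCs, 51.7% in late phESCs, 48.8% in late ahESCs and 42.3% in late diploid ESCs. That cytosine met the rule but was not methylated in brain alone. Of the other 6, the highest value outside brain was 5.66%, at Sash1 in 1 of the 9 libraries.

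The members were moderately methylated. Over all 6338 the median was 14.7% in the BM E19.5 brain and 13.3% in the WT adult brain, and 800 members reached 20% in both. Only 9 reached 50% in both, while 3896 were under 20% in both. In the BM, BP and WT embryos the median was 0%, and in the ESC libraries it ran from 0% in late phESCs to 1.39% in late ahESCs. The highest lower brain value belonged to a cytosine at chr17:31402134 outside the placed sequence, with 73.8% in the BM E19.5 brain and 63.1% in the WT adult brain. No value was listed there for the BM adult brain.

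**Figure D1:**
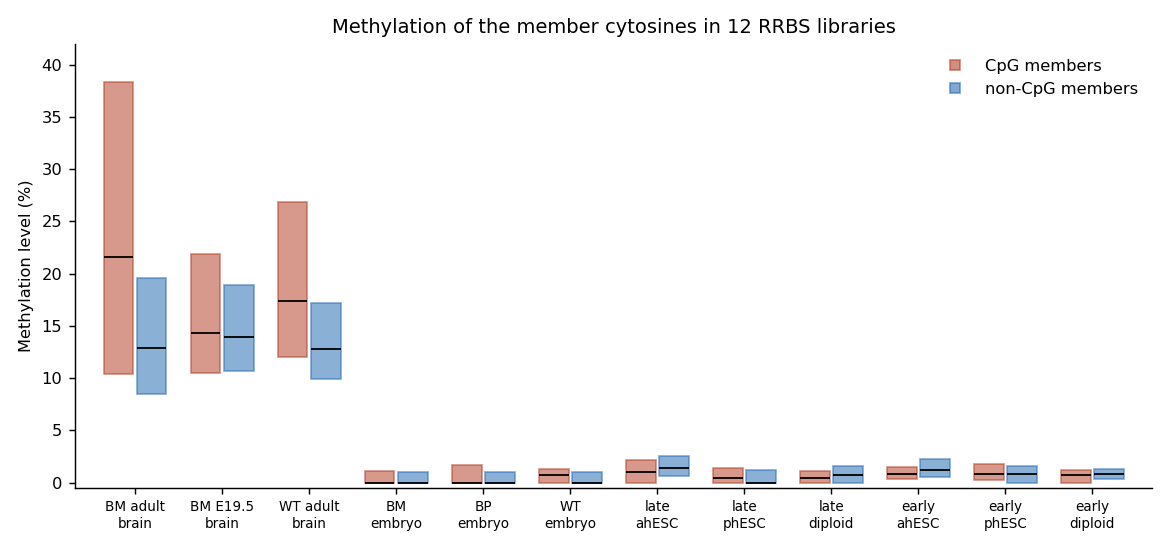
Methylation level in percent of the members of known context in each of the 12 libraries, CpG members in red and non-CpG members in blue. Boxes run from the lower to the upper quartile with the median as a line. Brain medians lie between 12.8% and 21.6%, and the 9 other libraries have medians of at most 1.42%.

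The levels near the thresholds were given for description only. The 1245 members whose lower brain value was 8% to under 9% had a median of 9.19% in the BM adult brain, and the 1758 cytosines just outside, at 7% to under 8%, had 8.09%. The 3816 members whose highest value outside brain was above 1% had a median of 14.3% in the BM adult brain, and the 4142 cytosines just outside, above 2% to 3%, had 15.1%.

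The BM adult brain, which took no part in the rule, was methylated at most members. It had a value at 4786 members, with a median of 14.2%, quartiles of 8.87% and 22.1% and a mean of 17.5%. Of these, 3794 (79.3%) had 8% or more, against 1.4% of all low cytosines with a value there. Of the members, 95.1% were above 2%, against 9.23% of low cytosines, and 30.5% reached 20%, against 0.175%. Only 4.22% of members were listed at 0. Cytosines that met the threshold in a single brain lay between: 40.3% of those with the WT adult brain alone and 19.2% of those with the BM E19.5 brain alone had 8% or more in the BM adult brain. With neither, the share was 0.959%.

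Each brain could be left out in turn and read at low cytosines that had 8% or more in the other 2. The share at 8% or more was 79.3% in the BM adult brain (3794 of 4786), 64.2% in the BM E19.5 brain (3794 of 5911) and 74.3% in the WT adult brain (3794 of 5106). For CpG cytosines these shares were 83.1%, 48.1% and 85.8% in the same order, and for non-CpG cytosines 78.6%, 59.8% and 71.0%. The BM E19.5 brain was thus the lowest of the 3 in both contexts, and by the wider margin at CpG. Over 4786 members Pearson's r was 0.743 between the BM adult and the WT adult brain. It was 0.405 between the BM adult and the BM E19.5 brain and 0.458 between the BM E19.5 and the WT adult brain. These correlations are across cytosines, which share their libraries and, in runs, their fragments. The rule set a minimum of 8% in the BM E19.5 and WT adult brains but not in the BM adult brain, so they are a description. Both adult libraries listed values on unplaced Y sequence and the BM E19.5 library listed none. Adult age and this difference cannot be told apart.

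CpG and non-CpG members differed in how the 3 brains compared. At the 739 CpG members with all 3 values the median was 21.6% in the BM adult brain, 14.3% in the BM E19.5 brain and 17.6% in the WT adult brain. At the 588 such non-CpG members it was 12.9%, 14.1% and 12.2%. The BM adult value was above the BM E19.5 value at 470 of 739 CpG members and at 228 of 588 non-CpG members. It was above the WT adult value at 452 of 739 and 311 of 588. The rule asked for 8% or more in the BM E19.5 and WT adult brains and not in the BM adult brain, so these differences are a description and their direction is not read.

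The fetal brain also lay near the adult brains over all placed CAC cytosines, which were not chosen by level. At 29527 CAC positions with a value in all 12 libraries the mean was 1.91% in the BM adult brain, 1.961% in the BM E19.5 brain and 2.12% in the WT adult brain. It was 0.831%, 0.661% and 0.903% in the BM, BP and WT embryos and 0.733 to 1.44% in the ESC libraries. The 198055 CC positions, a context that carries little methylation in any cell, had 0.432%, 0.505% and 0.736% in the brains and 0.361 to 0.785% elsewhere. CAC methylation is known to build up mainly after birth, while the fetal value here was at the adult level. The E19.5 label was followed, and whether it is right could not be checked. The CAC mean less the CC mean was 1.48, 1.46 and 1.38 points in the BM adult, BM E19.5 and WT adult brains, and 0.274 to 0.652 points in the 9 other libraries. CTC less CC was 0.234, 0.266 and 0.116 points in the brains and below 0 in all 9 others.

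Some members were also methylated in libraries outside the rule that hold no brain. At 8% or more were 1.25% of members in the BP embryo (0.451% of low cytosines), 2.50% in late ahESCs (0.273%), 1.69% in late phESCs (0.24%), 1.35% in late diploid ESCs (0.0456%), 0.790% in early ahESCs (0.0387%) and 1.65% in early phESCs (0.074%). Above 2% were 15.3% of members in the BP embryo (8.33% of low cytosines), 35.4% in late ahESCs (13.4%), 17.03% in late phESCs (4.99%), 16.2% in late diploid ESCs (3.29%), 25.7% in early ahESCs (3.51%) and 19.6% in early phESCs (3.96%). Pooled over these 6 libraries the share of member values above 2% was 21.8%. A minority of member values in these 6 libraries was thus above the 2% that the rule set for the others.

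The share of members varied with the bases after the cytosine. Members made up 1.18% of low CAC cytosines, 0.395% of CTC, 0.241% of CpG, 0.14% of other CA, 0.0116% of other CT and 0.0018% of CC, against 0.172% of all low cytosines of known context. In the BM adult brain, outside the rule, 8% or more was reached by 3.24% of low CAC, 1.32% of CTC, 1.33% of CpG and 0.682% of CC cytosines. Both measures put CAC first among these contexts. Within CC, CCGG held no member but reached 8% in the BM adult brain at 549 of 15407 low cytosines (3.56%). These were part of the 1535 CC cytosines that reached 8% there. The order below CAC differed: CAT and CAG, with 0.267% and 0.120% members, reached 8% in the BM adult brain as often as CTC, at 1.37% and 1.31%.

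**Figure D2:**
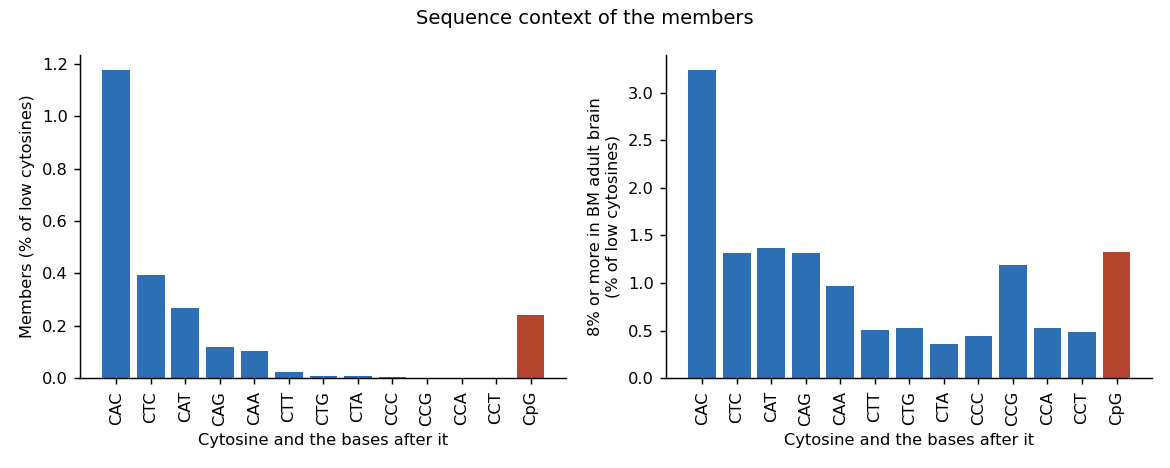
Share of low cytosines in each context that were members (left) and that had 8% or more in the BM adult brain (right), both in percent; non-CpG trinucleotides are in blue and CpG in red. CAC stands highest in both, at 1.18% and 3.24%.

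Bases further out varied with the share as well. After CAC, the share was 1.72% for CACC and for CACT, 1.03% for CACA and 0.162% for CACG. Before it, a T ahead of the G gave 2.68% for TGCAC, against 1.05% for AGCAC, 0.939% for GGCAC and 0.467% for CGCAC. For CTC the T was more frequent still: 176 of 259 CTC members were TGCTC (68.0%), against 18.1% of low CTC cytosines. Shares for the other bases ahead of GCTC were 0.124% for A, 0.226% for C and 0.121% for G, against 1.48% for T. In the BM adult brain 5.04% of low TGCAC and 3.17% of low TGCTC cytosines had 8% or more, so the T stood out there too. The placement kept only non-CpG cytosines that follow a G, so other bases in that place could not be seen.

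The CpGs within 100 bp of the members differed between CpG and non-CpG members. Around CpG members they had medians of 2.58%, 1.99% and 2.84% in the BM, BP and WT embryos, against 1.30%, 1.07% and 1.42% around low CpGs that missed 8% in both rule brains. The rule kept low cytosines at 2% or less in the BM and WT embryos but set no limit on the CpGs around them. Low embryo values were found around the other low CpGs too, so they are not particular to the members. In brain the neighbours of CpG members had 18.3% in the BM adult brain, 14.4% in the BM E19.5 brain and 16.3% in the WT adult brain, against 1.66%, 1.38% and 2.36% around those other low CpGs. Non-CpG members lay in methylated stretches: CpGs within 100 bp had medians of 83.1%, 83.6% and 80.8% in the 3 embryos, 68.9% in early ahESCs and 72.7% in early diploid ESCs. In the late ESC libraries they had 22.0 to 26.1%, and in early phESCs 37.0%. In the brains their CpGs had 66.4% in the BM adult, 89.6% in the BM E19.5 and 67.3% in the WT adult brain. The adult values thus lay below all 3 embryos and the E19.5 value above them. Around low non-CpG cytosines that missed 8% in both rule brains the means had the same order. They were 18.8%, 24.9% and 20.6% in these brains and 22.8 to 23.4% in the embryos. The medians there were at most 3.13% and did not show it. In means, the order was thus not particular to the members.

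In the WT embryo, 647 of 770 non-CpG members with CpG neighbours (84.0%) had a neighbour average of 50% or more. Low non-CpG cytosines that missed 8% in both rule brains had neighbours at a median of 1.90% in the WT embryo, with an upper quartile of 41.5%. The share of low CAC cytosines that were members was 0.0577% where neighbouring CpGs averaged under 10% in the WT embryo, 2.85% at 10 to 50%, 5.45% at 50 to 80% and 3.29% at 80% or more. In the BM adult brain, 8% or more was reached by 1.07%, 6.63%, 11.1% and 7.73% of CAC cytosines in these bins. CC cytosines showed no such step, with 0.638%, 0.908%, 0.666% and 0.861%.

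**Figure D3:**
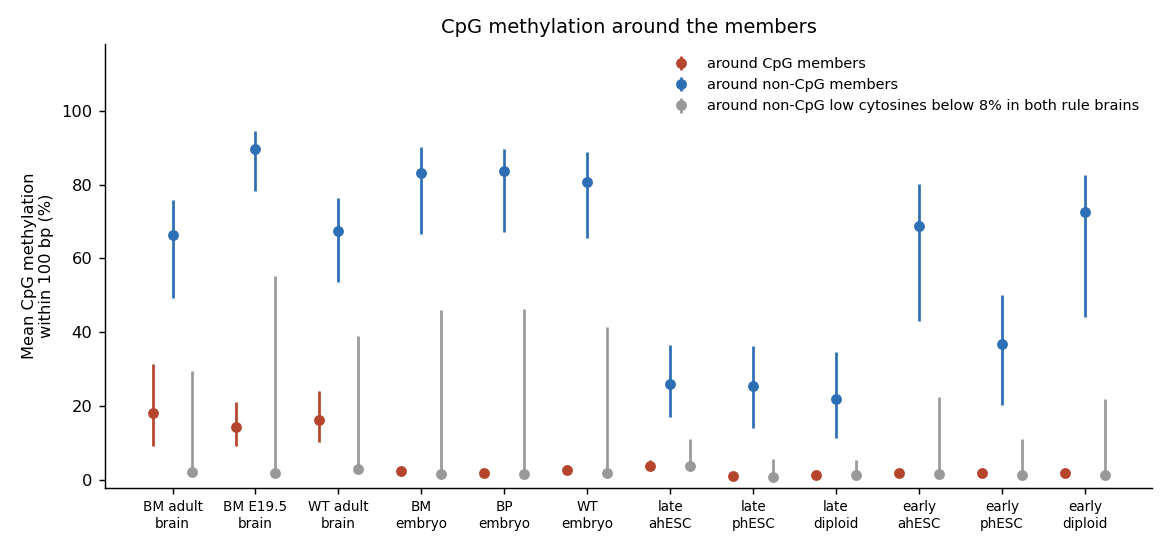
Mean CpG methylation in percent within 100 bp of CpG members (red), non-CpG members (blue) and low non-CpG cytosines that missed the threshold in both rule brains (grey), in each library. Points are medians and bars run between the quartiles; the blue medians lie between 22.0% and 89.6%, and the red ones rise above 4% in the 3 brains only.

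The strands differed in the same way. At CpG members the cytosine of the opposite strand had a median of 20.3% in the BM adult brain, 13.9% in the BM E19.5 brain and 16.7% in the WT adult brain, and at most 1.14% elsewhere. Where that partner was itself a low cytosine with all 5 values, it was a member in 264 of 380 cases (69.5%). At non-CpG members the cytosine facing the preceding G had medians of 1.23%, 1.55% and 1.69% in these brains. That partner had 8% or more at 22.6%, 22.8% and 21.9% of non-CpG members, against 80.8%, 81.2% and 82.1% of CpG members. At low non-CpG cytosines that missed 8% in both rule brains this share was 5.34%, 4.61% and 5.09%. At such CpGs it was 1.20%, 0.315% and 0.865%. In the BM, BP and WT embryos 12.6%, 12.5% and 13.1% of partners of non-CpG members also had 8% or more. The partner of a non-CpG member is another cytosine with a context of its own. CpG members were thus mostly methylated on both strands in brain, while most partners of non-CpG members were below 8% there.

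Clustering followed context. Of all members 1825 (28.8%) had another within 100 bp, against 2.53% of low cytosines. The member share was 11.9% when the libraries without brain had to be at 0% and 43.3% when they could reach 5%. With neighbouring positions merged it was 24.9%. Among CpG members 734 of 935 had another within 100 bp (78.5%), among CAC members 63 of 352 (17.9%) and among CTC members 38 of 259 (14.7%). Placed CpGs that were no members were also denser around CpG members, with a median of 30 within 100 bp, against 8 around non-CpG members. For a CpG member the other member could be the cytosine of the opposite strand. Where that was a low cytosine with all 5 values, it was a member in 264 of 380 cases. The share over low cytosines was not taken by context, and the parts of density and of strand pairs in the difference were not tested. Joined at gaps of at most 100 bp, the members formed 5130 runs, of which 4513 were single cytosines, 617 held 2 or more and 53 held 5 or more. Of the members in runs of 5 or more, 481 of 484 of known context were CpG (99.4%), while 646 of 847 single members of known context were not (76.3%). Of the low cytosines of known context, 388422 of 994457 were CpG. Members of unknown context had a member within 100 bp less often, at 20.8%, against 50.5% of those with known context. Their BM adult brain level was 8% or more at 78.6%, against 81.1%.

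The share of low cytosines that were members was lower at greater distance from another member. It was 12.1% at 1 bp, 5.11% at 2 to 10 bp, 2.96% at 11 to 30 bp, 1.81% at 31 to 100 bp and 0.955% beyond 100 and up to 300 bp. Further away it was 0.498% up to 1000 bp, 0.440% up to 10000 bp and 0.262% up to 100000 bp. Low cytosines near a member that did not meet the rule were also raised in the BM adult brain: 7.04% of those at 1 bp had 8% or more, against 1.12% of those more than 10000 and up to 100000 bp away. Under the listing assumed here, positions 1 bp apart are the opposite strands of the same CG or GC. For 264 CpG members the cytosine of the opposite strand was itself a member, so the share at 1 bp counts such pairs. At other short distances an RRBS fragment can cover cytosines in the same reads. Values at short distance are not independent in either case.

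**Figure D4:**
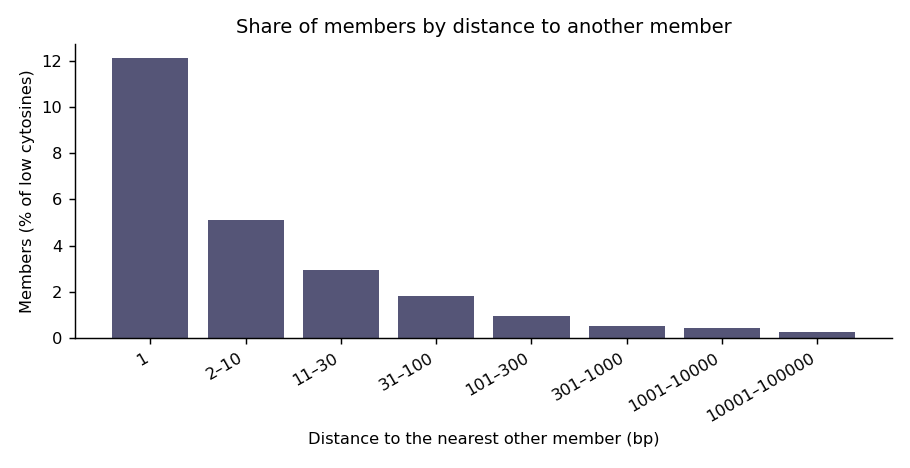
Share of low cytosines that were members, in percent, by distance in bp to the nearest other member. The bars fall from 12.1% for the adjacent position to 0.262% beyond 10000 bp. Under the assumed listing the adjacent position is the opposite strand of the same CG or GC.

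By location, 1031 members lay in coding exons, 322 in untranslated regions (UTRs), 247 in exons of non-coding transcripts and 111 in promoter windows. A further 1792 lay between placed exons and 2835 could not be placed. Coding exons held 61.1% of CpG members of known context, against 25.1% of low CpGs, and UTRs held 20.5%, against 47.8%. Windows around gene starts held 16.8% of CpG members, against 35.4% of low CpGs. Non-CpG members were in coding exons in 59.3% of cases, against 40.6%. The CpG members thus lay in gene bodies more than around starts, relative to the CpGs that could have met the rule.

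Members in placed exons or promoters fell in 964 genes, which is 4.99% of the 19329 genes with a low cytosine there. Of these genes 312 held a CpG member, 680 a non-CpG member and 28 both. A single member was found in 712 genes and 5 or more in 55. The 20 genes with most members held 399, of which 395 were CpG. Mean levels over a gene's members were 12.7 to 90.8% in the BM adult brain, 10.5 to 52.1% in the BM E19.5 brain and 12.4 to 74.5% in the WT adult brain. The BM adult mean was above the BM E19.5 mean in 18 of the 20 genes and above the WT adult mean in 19, though it rests on fewer members where values were missing.

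The genes below are given by their known roles, with no test of a theme. Nrxn2, a neurexin of the presynaptic membrane, held 55 members, 53 of them in coding exons. Runs of 29 and 18 held most of them, and the rest lay outside these runs. The 55 members averaged 45.9% in the BM adult brain, 20.03% in the BM E19.5 brain and 37.3% in the WT adult brain, against 0.379 to 0.918% in the other 9 libraries. The BM adult value was 8% or more at 44 of the 46 members that had one, and its highest was 91.7%, at chr19:6428676 in the run printed above. Sptbn4, the spectrin of the axon initial segment, held 44 members with means of 37.1%, 21.2% and 23.4% in the same order of brains, and its run of 39 in 315 bp held the most members of any run. Anks1b, a postsynaptic scaffold protein, held 21, all in UTRs, with 23.1%, 16.3% and 20.4%. Grin2d, an NMDA receptor subunit, held 20 with 12.7%, 12.6% and 12.4%, and 7 of its 13 BM adult values were 8% or more. Gprin1, a mediator of neurite outgrowth, held 22 with 15.3%, 13.4% and 14.7%.

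**Figure D5:**
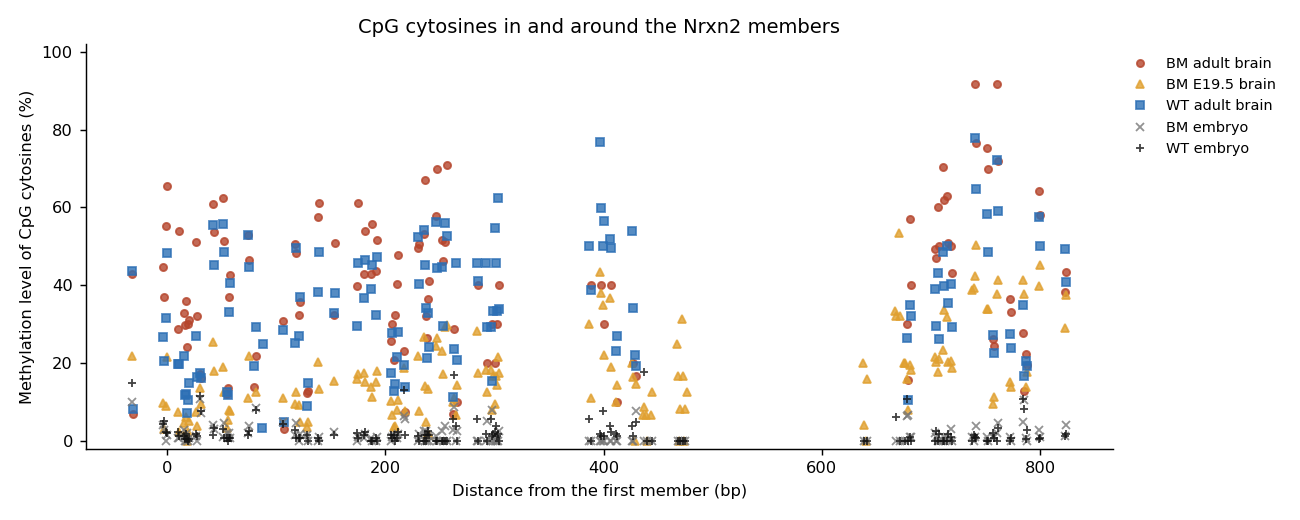
Methylation level in percent of the placed CpG cytosines of both strands in and around the Nrxn2 runs, by distance in bp from the first member. The 3 brain libraries spread up to 91.7%, with medians of 40% in the BM adult brain, 15.3% in the BM E19.5 brain and 33.6% in the WT adult brain over the 824 bp of the runs, while the BM and WT embryos had medians of 0.816% and 1.13%.

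The Nrxn2 plot covers members and other CpGs alike. Over 824 bp it holds 179 CpG cytosines, of which 114 had a value in the BM adult brain. Their median there was 40%, so CpGs of the stretch that were no members were methylated in brain as well. The highest single value was 10.9% in the BM embryo, 13.6% in the BP embryo and 17.6% in the WT embryo, and among the ESC libraries it was 20.998%, in late ahESCs.

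Cacna1a, the pore subunit of the P/Q-type calcium channel, held 15 CpG members in a coding exon with 28.8%, 10.5% and 25.3% in the BM adult, BM E19.5 and WT adult brains. All 15 had 8% or more in the BM adult brain, from 9.30 to 72.4%. Otud7a, a deubiquitinase, held 16 with 51.3%, 13.6% and 41.1%, and Kbtbd11 held 15 with 34.1%, 11.1% and 32.7%. In these 3 genes the adult brains were both above the E19.5 brain by more than they differed from each other. The same held among the 20 genes for Nrxn2, Gprin1, Anks1b, Hic1, Odc1 and Fbrsl1. The rule used the BM E19.5 and WT adult brains, so this is a description.

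Some other genes had no such gap between fetal and adult brain. Vcpkmt, a lysine methyltransferase, held 19 members with 46.6% in the BM adult brain, 52.1% in the BM E19.5 brain and 32.5% in the WT adult brain. Mrpl19, a protein of the mitochondrial ribosome, held 13 with 57.8%, 44.2% and 27.5%. Its members also averaged 12.1% in early phESCs, and those of Vcpkmt 5.25%, the highest of the 9 libraries without brain in each case. Insm2, a zinc-finger transcription factor, held 15 with 22.7%, 23.6% and 17.7%.

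Transcription factors and a kinase were also among the 20, which are not described in order of rank. Foxo6 and Abl1 held more members than Gprin1, Anks1b or Grin2d. Foxo6, a forkhead factor, held 27 members with 35.5%, 16.6% and 17.1% in the BM adult, BM E19.5 and WT adult brains. Hic1, a transcriptional repressor, held 12 with 31.3%, 16.4% and 23.9%. Abl1, a tyrosine kinase, held 24 members, 12 in the promoter window and 12 in a UTR, with 29.5%, 22.5% and 21.3%. Fbxo41, Prrt4, Zfp316, Marveld2 and Fbrsl1 completed the 20, with 18, 16, 14, 14 and 9 members and BM adult means of 22.4%, 30.04%, 22.2%, 15.03% and 20.2%.

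Odc1, the rate-limiting enzyme of polyamine synthesis, had the highest mean of the 20 genes in both adult brains, while Vcpkmt and Mrpl19 were above it in the BM E19.5 brain. Its 10 members, all CpG cytosines on the plus strand of a UTR, averaged 90.8% in the BM adult brain, 40.8% in the BM E19.5 brain and 74.5% in the WT adult brain. They were at 0% in the BM embryo and at 7.37% in late ahESCs, the highest of the 9 other libraries. Of the 10 highest BM adult values among all members 7 were in Odc1, from 89.5 to 94.2%. The first in the run had 85.8%, 37.8% and 67.7% in these brains and is shown with its CG in capitals.
Odc1, UTR, chr12:17551830-17551850, plus strand: cacctccggtCGgcgtctgcg
Whether reads of the Odc1, Mrpl19 or Vcpkmt exons could also match copies elsewhere in the genome was not tested.

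Genes with several non-CpG members were few, as 110 genes held 2 or more. Ciita, the activator of MHC class II genes, held 4 with means of 27.1% in the BM adult brain, 17.8% in the BM E19.5 brain and 18.96% in the WT adult brain, and 0% in all 3 embryos. Evc2, a ciliary protein, held 4 with 13.9%, 13.8% and 10.3%. Ulk4, a kinase-like protein, held 3 with 60.2%, 13.5% and 29.7%, of which 2 had a BM adult value. None of these reached the counts of the CpG genes.

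Over the 8 marker and pathway lists 4 of 78 genes with low cytosines held members in placed exons or promoters (5.13%), against 4.99% of all such genes, which is close to that background. Among neuronal genes 1 of the 27 with low cytosines held members in placed exons or promoters, namely Cacna1a, with 15 of 2020 low cytosines (0.743%, against 0.172% of low cytosines of known context), all in 1 gene. Rbfox3, the gene of the neuronal antigen NeuN, held 2 members between exons, with 20.9% and 16.7% in the BM adult brain, and Ntrk2, the BDNF receptor, held 1 with 1.67%. The astrocyte list had Slc1a2, a glutamate transporter, as 1 of 5 genes, with a single CTC member at 22.1% in the BM E19.5 brain and 9.51% in the WT adult brain. The oligodendrocyte list had Mog, a myelin protein, as 1 of 7, with a single CAC member at 0% in the BM adult brain, 8.99% in the BM E19.5 brain and 11.9% in the WT adult brain. Mbp, another myelin protein, held 1 between exons, at 10.7% in the BM adult brain.

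The microglial list (3 genes with low cytosines) and the neural progenitor list (15 genes) held none, where the share over all genes would give under 1 gene in each. The fibroblast and blood list held 0 in 3 genes. The pluripotency list held 0 in exons or promoters of 6 genes, and 2 between exons of Esrrb, an ESC transcription factor, at 17.4% and 21.5% in the BM adult brain. Of 12 genes of DNA methylation and its readers, Dnmt3a held members, namely 2 CpGs in a promoter window and 1 cytosine between exons. The promoter CpG with all 3 brain values had 17.2% in the BM adult brain, 15.4% in the BM E19.5 brain and 21.4% in the WT adult brain.

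Between 3773871 (BP embryo) and 5903648 (WT adult brain) positions had a value in a library. Read depth is unknown, because the table holds percentages without coverage, so no interval can be given for a level. Values on unplaced Y sequence were listed for the BM adult brain (2209), WT adult brain (7697), late ahESC (4124) and late phESC (2348) libraries and for none of the other 8. The set of positions therefore differs between these 4 libraries and the rest. These include the BM adult brain and the late phESCs, which have no paternal genome by their labels. The part of this in the results was not tested.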

How the data were processed

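Per the submitters' processing notes the authors used Trim Galore and Bismark 0.13.1 on mm9 and deposited a methylation percent from 0 to 100 per cytosine in 12 RRBS libraries. Missing values are marked by a letter, and no coverage is given. All levels here are these deposited percent values, and all coordinates are mm9. Sequence stretches of up to 300 bases from GENCODE M21 exons and RefSeq promoter windows were placed on mm9 where at least 8 listed positions matched and none disagreed; 62542 of 524109 stretches were placed, against 4 at a false shift. No coordinate was converted, and the placement and the rule were tested on simulated data. Shares and medians were taken over cytosines, with no test, because each group has 1 library. Genes were named by number of members, cytosines by level. The members and gene lists were chosen with earlier results of these data known. Alternatives changed the thresholds, the required columns, the merging of neighbouring positions, the distance and the placement minimum. Tables were handled with pandas 2.3.3 and NumPy 2.4.6 in Python 3.11.15 and Matplotlib 3.10.9 drew the figures.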

Additional observations from a re-analysis of the deposited data

Results flagged for a closer look

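Chromosome X was outside the rule, and 61 of its 37385 low cytosines (0.163%) met the same thresholds. Of the 36 with a value in the BM adult brain 25 had 8% or more (69.4%), with a median of 15.8%. They are listed here because they lie outside the comparisons above, and the difference from the autosomes was not tested.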

How the results depend on the processing

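No paired analysis was possible because each group has 1 library. The number of members, 6338 as reported, was 4190 with a brain minimum of 10%, 800 with a minimum of 20%, 1142 with a maximum of 0% outside brain, 17931 with a maximum of 5%, 3640 with a value required in all 12 libraries and 6093 with neighbouring positions merged. In the same order of settings, members were 0.209%, 0.0399%, 0.208%, 0.728%, 0.284% and 0.304% of low cytosines. The share at 8% or more in the BM adult brain was 87.03%, 97.4%, 74.9%, 78.8%, 80.7% and 78.8%, and the median there was 17.3%, 32.3%, 13.04%, 14.5%, 14.5% and 13.96%. The share with a member within 100 bp was 26.97%, 24.25%, 11.9%, 43.3%, 31.7% and 24.9%. The share not CpG was 42.1%, 27.2%, 47.2%, 33.8%, 41.7% and 49.2%, and values above 2% in the 6 other libraries outside the rule made up 22.7%, 28.5%, 20.2%, 33.5%, 20.3% and 22.0%. Another member lay within 30 bp of 22.6% and within 1000 bp of 33.9% of members. In the BM adult brain 95.1% were above 2% and 30.5% at 20% or more. With at least 15 matched positions 42.8% were not CpG. The causes of these differences were not tested beyond the change of setting. Context is known in exons and promoter windows alone, which limits statements on the members elsewhere, and read depth is unknown.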
